A study of Mus musculus with 4 samples.

Results

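Levels of the 6 peroxiredoxin genes (Prdx1 to Prdx6), the thioredoxins Txn1 and Txn2, the thioredoxin reductase Txnrd1 and the sulfiredoxin Srxn1 were examined in B16F10 cells with and without an shRNA against Lmna. These 10 genes were taken by symbol from the 24421 symbols of the count matrix. The system was chosen by the counts of Prdx1 in this same comparison, where it was the clearest rise. The values of Prdx1 are therefore given as a description with no test, while the other 9 genes came in by family name.

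Peroxiredoxins are peroxidases that reduce hydrogen peroxide through a reactive cysteine, which is oxidised in the process. Thioredoxin restores the oxidised enzyme and is itself restored by thioredoxin reductase at the expense of NADPH, while sulfiredoxin rescues peroxiredoxins that have been overoxidised. In melanocytes and melanoma cells, melanin synthesis is a source of peroxide, and the transcription factor NRF2 induces several genes of this system under oxidative stress.

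B16F10 is a melanoma line from C57BL/6 mice. Both groups were transduced with a lentivirus, selected with puromycin and expanded, and both were grown in DMEM with 10% serum. The control group (shControl, 2 libraries) carried the empty TRC2 pLKO.5-puro vector, and the knockdown group (shLmna, 2 libraries) carried a hairpin against exon 8 of Lmna, which encodes the A-type lamins of the nuclear lamina. Since the control vector holds no hairpin, an effect of carrying any hairpin cannot be told apart from the loss of Lmna. The study measured how reduced lamin A/C changes transcription in these cells. It is not stated if replicate libraries stem from separate transductions or cultures, so p-values measure the spread between libraries, which may be technical.

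RNA was profiled by bulk MARS-seq, which tags transcripts at their 3′ ends. Levels are given as counts scaled to a common library total (CPM), with library sizes scaled by the trimmed mean of M values (TMM), as mean ± SD over n = 2 libraries per group. Totals ran from 2494880 to 3808843 counts a library, at which 3 counts equal 0.788 to 1.20 CPM, and every one of the 10 genes lay far above that floor in every library. Lmna fell from 797 ± 111 CPM to 131 ± 0.0955 CPM in the libraries labelled shLmna, a log2 fold change of -2.61 ± 0.14 (SE; adjusted p = 7.93e-06 in edgeR's quasi-likelihood F test, adjusted over all tested genes). Of 7 melanocyte markers 6 were tested, and their summed level was 20117 to 20891 CPM in shControl and 21156 to 24602 CPM in shLmna. They did not move together: 2 passed the test upward (Mlana, log2 fold change 0.51, adjusted p = 0.00510, and Pmel, 0.41, adjusted p = 0.0258) and 1 downward (Sox10, -0.89, adjusted p = 0.00161, all in edgeR), and their part in the results on the 10 genes was not tested. Tyr, which encodes tyrosinase, was nearly undetected, with 1 count in each shControl library, 3 in shLmna 1 and 7 in shLmna 2. Counts come from a stretch at the annotated 3′ end, so Tyr RNA ending elsewhere would not be seen. Of 14 markers of immune, endothelial, fibroblast and epithelial cells 8 were at 0 in all libraries, and their summed level was at most 5.62 CPM.

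Prdx1, a cytosolic peroxiredoxin, was at 81.8 and 51.7 CPM in shControl 1 and 2 and at 384 and 368 CPM in shLmna 1 and 2 (264, 193, 972 and 1350 counts). Both shLmna libraries lay far above both shControl libraries, and the shControl libraries differed more from each other than the shLmna libraries did. The group levels were 66.7 ± 21.3 CPM and 376 ± 11.8 CPM, a ratio of 5.64 and a log2 fold change of 2.50 ± 0.19 (SE). In bulk RNA, a higher level in every cell and more cells with a high level cannot be told apart. By counted 3′ ends, Prdx1 was the lowest of the 10 genes in shControl and ranked 5 in shLmna. The gene spans chr4:116685544-116700822 (GRCm38, plus strand), with 6 exons in the transcript used here.

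Sequence upstream of Prdx1 is shown because it holds a motif related to NRF2, the factor named above. In the 250 bases before the start of each RefSeq promoter entry (GRCm38.p6), the core of the antioxidant response element, TGACNNNGC, was searched on both strands, as was the fuller TGACTCAGC, each match of which is also a match of the core. The core was in 10.2% of 32536 promoters and the fuller form in 0.393%. Promoter entries were found for 9 of the 10 genes, all but Prdx6. Prdx1 held the fuller form, on the minus strand, 133 to 125 bases upstream of the RefSeq start. The stretch chr4:116685349-116685543 is printed 5′ to 3′ on the plus strand up to the first annotated exon, with the match in capitals, where it reads as the reverse complement.
Prdx1: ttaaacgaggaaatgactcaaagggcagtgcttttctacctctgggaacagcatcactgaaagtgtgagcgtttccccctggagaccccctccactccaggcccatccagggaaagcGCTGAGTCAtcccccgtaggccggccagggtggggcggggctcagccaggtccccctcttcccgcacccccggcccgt
No match of either form was found in these windows for Prdx2, Prdx3, Prdx4, Prdx5, Txn1, Txn2 or Srxn1, and the match of Txnrd1 is given with that gene. Both searched forms begin with TGAC. The Srxn1 window holds TGAGTCAGC, which begins with TGAG, and forms beginning that way were not searched in any window. A match is a description of letters, and NRF2 binding was not measured in these libraries.

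**Figure D1:**
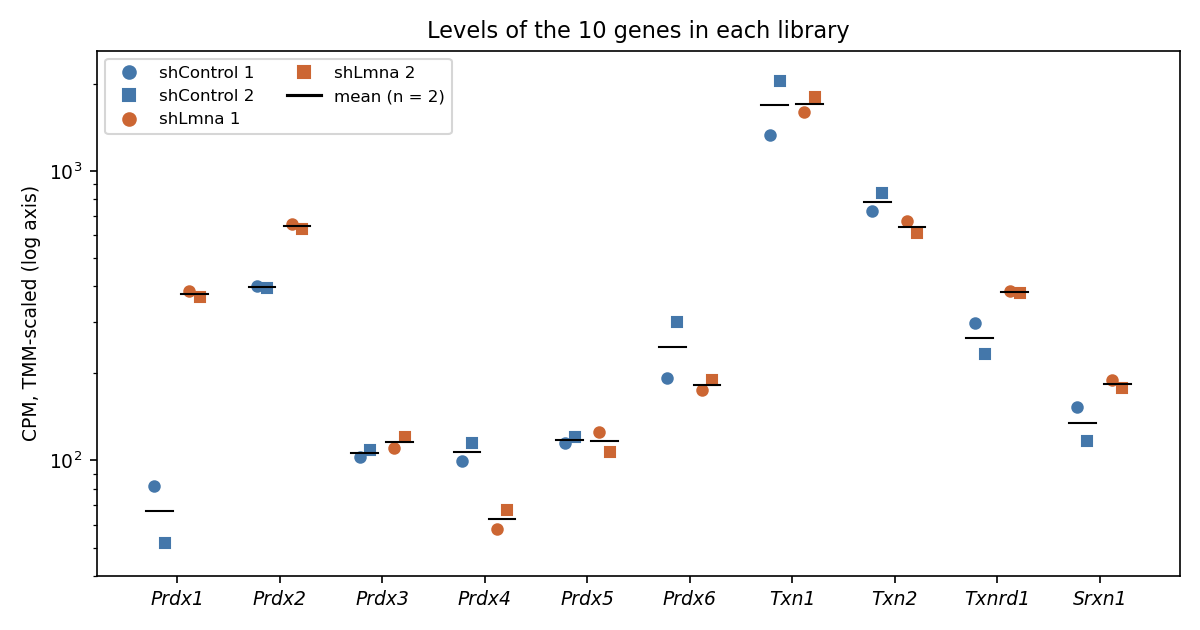
Level of each of the 10 genes in each library, in TMM-scaled CPM on a log axis; circles are replicate 1, squares replicate 2, and black bars the mean of the 2 libraries of a group. Prdx1 stands at 51.7 to 81.8 CPM in shControl and 368 to 384 CPM in shLmna, a wider separation than for any of the other 9 genes.

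Among the other 9 genes the levels did not move together. In shLmna, Prdx2 and Txnrd1 rose and Prdx4 fell, and 6 genes did not pass the test. The test was edgeR's quasi-likelihood F test, two-sided, with Benjamini-Hochberg adjustment over 9150 tested genes and a threshold of 0.05. Passing it were thus 2 of 9 genes upward, against 5.48% of all tested genes, and 1 of 9 downward, against 9.74%. None of the 9 was past the study's 3 limits (adjusted p under 0.05, a log2 fold change over 1 in size and a mean normalised count over 5), which 1.76% of all tested genes passed upward and 5.88% downward, and none reached a log2 fold change of 1 in size under any of 13 alternative settings. Under an unadjusted p of 0.05 in edgeR were 6 of the 9, against 30.1% of all tested genes. The median log2 fold change of the 9 was 0.01, beside -0.0011 over all tested genes. Both shLmna libraries lay above both shControl libraries for 4 of the 9, against 29.5% of all tested genes, and below them for 3, against 30.6%. With 9 genes these shares are coarse, and nothing was read from them about the system as a whole.

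Prdx2, a typical 2-Cys peroxiredoxin of the cytosol like Prdx1, was at 399 and 394 CPM in shControl and at 658 and 630 CPM in shLmna. The groups did not overlap, and the libraries within a group differed little. The level rose from 396 ± 3.80 to 644 ± 19.7 CPM, a ratio of 1.62 and a log2 fold change of 0.70 ± 0.12 (SE; adjusted p = 0.00345, edgeR). Without shLmna 1 the change was as large but the adjusted p was 0.0550 (edgeR). Prdx2 lies at chr8:84969587-84974834 on the plus strand. Its last 1000 transcript bases share 14.4% of their 31-base stretches with transcripts of other genes, mostly the pseudogene Tdpx-ps1, so reads could be split between the copies. Its counted window also overlaps exons of Junb on the opposite strand by 173 bases. Junb itself was at 13.9 to 18.5 CPM in the 4 libraries, with a log2 fold change of 0.08 (adjusted p = 0.859, edgeR).

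Prdx4, the peroxiredoxin of the endoplasmic reticulum, was at 99.7 and 115 CPM in shControl and at 57.7 and 67.6 CPM in shLmna. Both shLmna libraries lay below both shControl libraries, opposite in direction to Prdx1 and Prdx2. Its level fell from 107 ± 10.5 CPM in shControl to 62.7 ± 6.95 CPM in shLmna, which is -0.77 on the log2 scale, with an SE of 0.15 (adjusted p = 0.00751, edgeR), and the control level was 1.71 times the knockdown level. The call was lost without shLmna 1 (adjusted p = 0.0933) and without shLmna 2 (adjusted p = 0.0531), both in edgeR with the remaining library assumed to vary like the other group. Prdx4 lies at chrX:155323918-155340754 on the minus strand, and its 3′ end shares no 31-base stretch with another gene.

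None of the mitochondrial members Prdx3, Prdx5 and Txn2 passed the edgeR test in the main fit. Prdx3, a peroxiredoxin of the mitochondrial matrix at chr19:60864051-60874556, was at 103 and 109 CPM in shControl and at 110 and 121 CPM in shLmna. Although the groups did not overlap, the log2 fold change was 0.13 ± 0.13 (SE; adjusted p = 0.532, edgeR), no larger than its error. Prdx5, an atypical peroxiredoxin found in mitochondria and other compartments, was at 115 and 120 CPM in shControl and at 126 and 107 CPM in shLmna. Its groups overlapped, the log2 fold change was -0.02 ± 0.13 (SE; adjusted p = 0.941, edgeR), and the sign turned with the scaling used. Its counted window overlaps exons of Trmt112 on the opposite strand by 147 bases, and Trmt112 was at 17.7 to 32.4 CPM. Txn2, the mitochondrial thioredoxin at chr15:77915047-77929006, was at 727 and 838 CPM in shControl and at 669 and 612 CPM in shLmna, with no overlap. Its log2 fold change of -0.29 ± 0.12 (SE) did not pass the test (adjusted p = 0.15, edgeR), except when shControl 1 was left out (adjusted p = 0.0353, edgeR). The summed level of Prdx3, Prdx5 and Txn2 was 945 and 1067 CPM in shControl and 905 and 840 CPM in shLmna.

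Prdx6, a peroxiredoxin with a single reactive cysteine that is recycled with glutathione, and not thioredoxin, was at 192 and 301 CPM in shControl and at 175 and 189 CPM in shLmna. The shLmna libraries were both lower, but shLmna 2 was close to shControl 1, and the shControl libraries lay far apart. The log2 fold change of -0.44 ± 0.19 (SE; adjusted p = 0.152, edgeR) therefore rested on shControl 2. It was -0.72 without shControl 1 (adjusted p = 0.000115, edgeR) and -0.08 without shControl 2 (adjusted p = 0.778, edgeR). Prdx6 lies at chr1:161240112-161251219 on the minus strand, and its 3′ end shares 0.619% of its 31-base stretches with Prdx6b.

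Txn1, the cytosolic thioredoxin that reduces Prdx1 and Prdx2, had the highest counted level of the 10 genes in both groups. Its level was 1328 and 2052 CPM in shControl and 1592 and 1806 CPM in shLmna, so both shLmna libraries lay between the shControl libraries. The log2 fold change was 0.01 ± 0.18 (SE; adjusted p = 0.985, edgeR), and its sign depended on which library was kept: -0.27 without shControl 1 and 0.35 without shControl 2. The shControl libraries differed from each other by more than any shLmna library differed from either of them. Of the 31-base stretches at its 3′ end 7.32% are shared with other transcripts, mainly the pseudogene Txn-ps1. Txn1 lies at chr4:57943373-57956411 on the minus strand.

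Txnrd1, the cytosolic reductase that restores Txn1 with NADPH, was at 298 and 233 CPM in shControl and at 386 and 379 CPM in shLmna. The groups did not overlap, and the nearest libraries were shControl 1 and shLmna 2. Its level rose from 265 ± 46.2 to 383 ± 4.97 CPM, a ratio of 1.44 and a log2 fold change of 0.53 ± 0.14 (SE; adjusted p = 0.0338, edgeR). This call was the least firm of the 3 that passed: it was lost without shControl 2 (adjusted p = 0.103), without shLmna 1 (0.165) or shLmna 2 (0.174), and after a trend with the GC content of the 3′ end was removed (0.0542), all in edgeR. Txnrd1 lies at chr10:82833951-82897712 on the plus strand and has 3 RefSeq promoter entries. In one of them the core TGACNNNGC was found on the minus strand, 92 to 84 bases upstream of that start, and the stretch chr10:82859009-82859178 around it, free of annotated exons, is shown for comparison with Prdx1 on the plus strand, with the match in capitals.
Txnrd1: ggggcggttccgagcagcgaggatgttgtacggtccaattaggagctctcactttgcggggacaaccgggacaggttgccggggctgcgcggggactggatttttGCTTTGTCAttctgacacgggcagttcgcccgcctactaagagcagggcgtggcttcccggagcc

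Srxn1, the sulfiredoxin that rescues overoxidised peroxiredoxins such as Prdx1, was at 153 and 116 CPM in shControl and at 190 and 178 CPM in shLmna. The groups did not overlap, with shControl 1 nearest to the shLmna libraries as for Txnrd1. The log2 fold change was 0.45 ± 0.15 (SE; adjusted p = 0.0713, edgeR) and did not pass the test, though it did under 4 of 13 alternative settings. Srxn1 lies at chr2:152105516-152111376 on the plus strand.

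**Figure D2:**
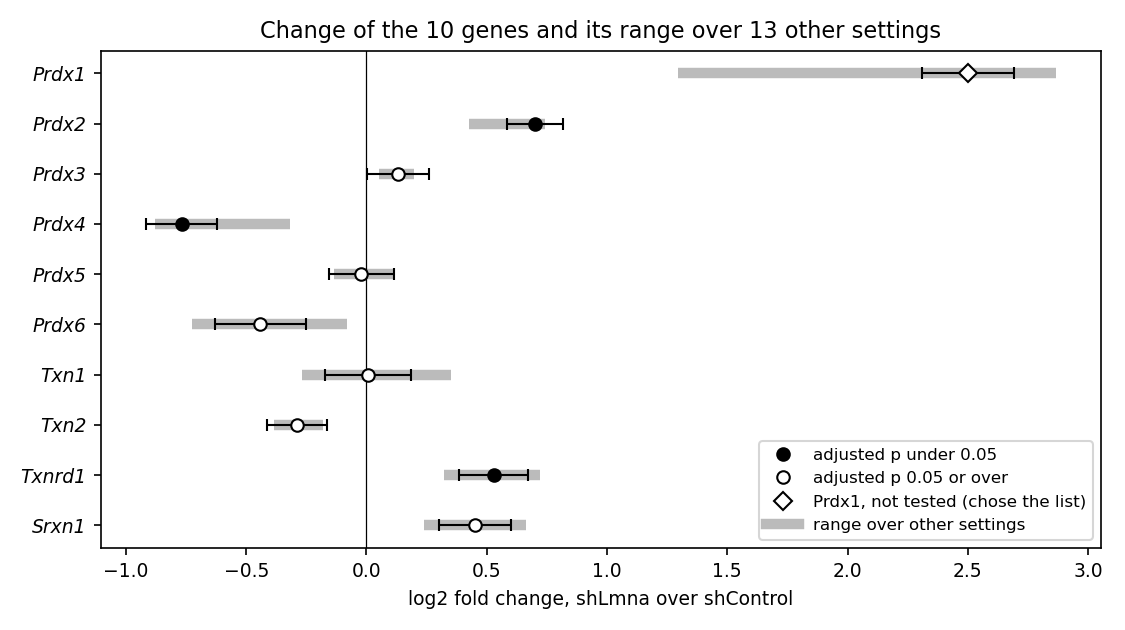
Log2 fold change of each of the 10 genes, shLmna over shControl, with bars of 1 SE; filled circles passed the edgeR test, open circles did not, and Prdx1 (diamond) was not tested. Grey bands span 13 other settings: they stay on 1 side of 0 for 8 genes and cross it for Prdx5 and Txn1.

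On the batch-corrected log2 values deposited by the authors, the differences were smaller than in the counts, at 1.29 for Prdx1, 0.43 for Prdx2, -0.32 for Prdx4 and 0.32 for Txnrd1. The 3 tested calls were kept there in limma (adjusted p = 0.00263, 0.00372 and 0.0111, respectively), and the cause of the smaller differences was not tested.

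The make-up of the peroxiredoxin transcripts differed between the groups. The 6 genes summed to 991 and 1090 CPM in shControl and to 1511 and 1482 CPM in shLmna, a ratio of 1.44. Without Prdx1 the sums were 909 and 1039 CPM in shControl and 1126 and 1114 CPM in shLmna, a ratio of 1.15, and Prdx1 followed by Prdx2 added the most transcripts. MARS-seq counts a fixed stretch at the 3′ end, so levels of different genes were set side by side without division by length. Coding transcripts that end outside that stretch would not be counted. By the window described below these were 4 of 5 for Prdx1 and 0 of 5 for Prdx2. The sums and shares are therefore of counted ends, which need not be all transcripts of a gene. Prdx1 made up 8.26% and 4.74% of the peroxiredoxin transcripts in shControl and 25.4% and 24.8% in shLmna. Prdx2 was the largest share in every library, at 36.1% to 43.5%. Prdx4 made up 10.1% and 10.5% in shControl and 3.82% and 4.56% in shLmna, the smallest share in shLmna. The shares of Prdx3, Prdx5 and Prdx6 were also lower in both shLmna libraries than in either shControl library, although none of these genes passed the test on its own level. A share moves with the other genes of the sum, and these shares were not tested because Prdx1 enters each of them. Per count of Prdx2 there were 0.205 and 0.131 counts of Prdx1 in shControl and 0.584 and 0.584 in shLmna.

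**Figure D3:**
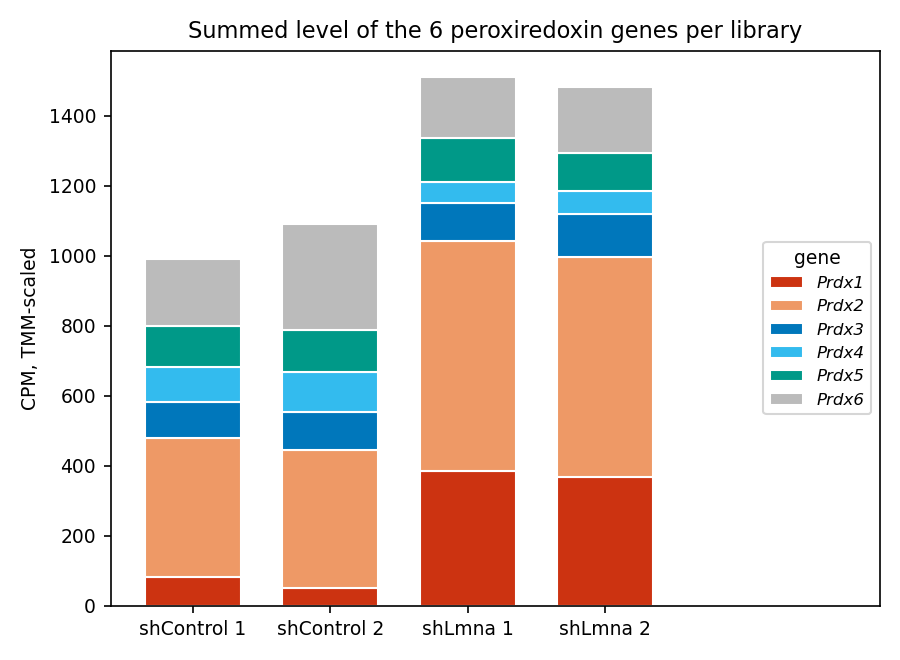
Summed level of the 6 peroxiredoxin genes in each library, in TMM-scaled CPM, with each gene's part stacked in colour. The shControl stacks reach 991 and 1090 CPM and the shLmna stacks 1511 and 1482 CPM, and the Prdx1 part at the base is the one that differs most.

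In order of level, shControl ran Txn1, Txn2, Prdx2, Txnrd1, Prdx6, Srxn1, Prdx5, Prdx4, Prdx3 and Prdx1. Txnrd1 and Prdx6 did not differ beyond their summed SDs there, nor did the neighbours from Srxn1 to Prdx3. In shLmna the order was Txn1, Prdx2, Txn2, Txnrd1, Prdx1, Srxn1, Prdx6, Prdx5, Prdx3 and Prdx4, with Prdx2 and Txn2, Txnrd1 and Prdx1, Srxn1 and Prdx6, and Prdx5 and Prdx3 within their summed SDs. Thus, in these counts, Prdx1 moved from below all other members to the level of Txnrd1, and Prdx4 took the last place. The order between genes depends on which of their ends fall in the counted window, as described next.

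The 3′ ends of the 10 genes bear on what was counted. The counted window of a RefSeq gene was its final 1000 bases with 100 bases beyond the end, and where the authors' annotation placed each end is not stated, so the most distal end in GENCODE vM21 was taken here. Prdx1 has 5 annotated coding transcripts, of which 1 is matched to RefSeq and ends at the most distal site. The other 4 end 1550, 1636, 6980 and 7830 bases upstream and lie outside that window. The signal AATAAA is in the last 50 bases of the distal transcript and of none of the other 4; it is in 54.6% of 23350 transcripts, 1 a gene. A higher level of Prdx1 and a wider use of its distal end cannot be told apart in these counts. For Prdx2, Prdx3, Prdx4, Prdx5, Txn1 and Srxn1 no coding transcript ended outside the window. For Prdx6 1 of 2 did, for Txnrd1 2 of 5, and for Txn2 3 of 6, so the same limit holds for their changes. Of these outside ends 1 of Prdx6 and 1 of Txnrd1 are matched to RefSeq, and none of Txn2. For Lmna 3 of 4 coding transcripts ended outside the window, 2 of them matched to RefSeq. By this window its values cover RNA with the most distal end and need not cover all Lmna transcripts.

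**Figure D4:**
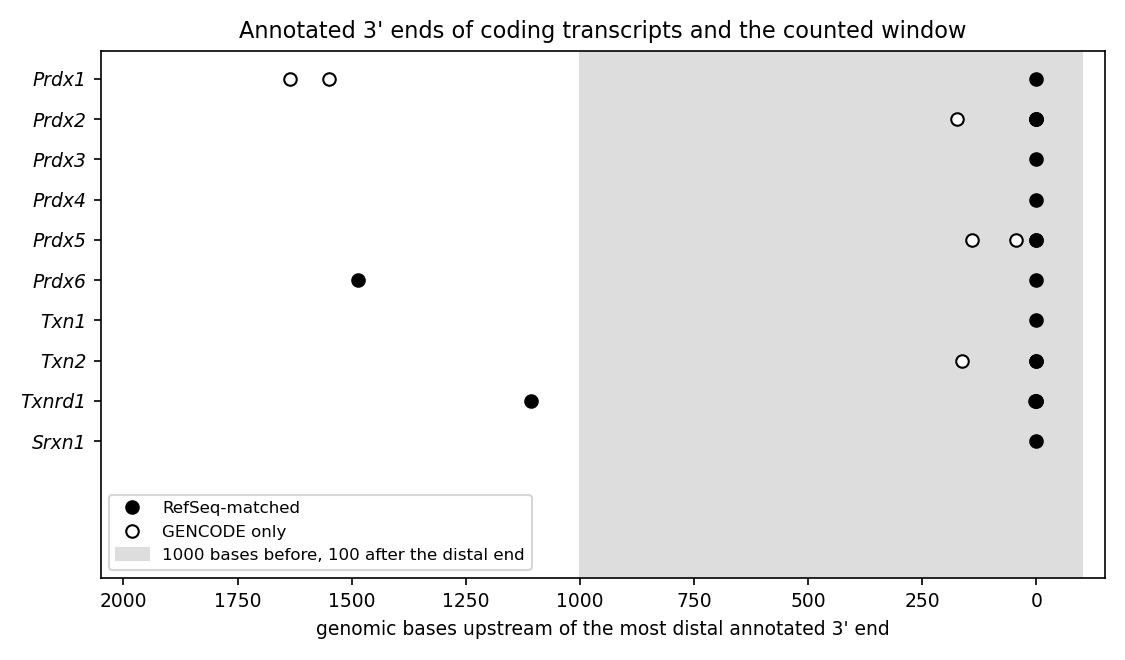
Annotated ends of coding transcripts of the 10 genes, in genomic bases upstream of the most distal end; filled points are matched to RefSeq, open points are not, and grey marks the window of 1000 bases before and 100 after that end, drawn without introns. Ends farther upstream than the axis reaches are not drawn; Prdx1 ends at 1550 and 1636 bases, 1 Prdx6 end at 1486 and 1 Txnrd1 end at 1107 lie outside the window.

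The wider redox network was described with 4 lists, by counts and medians. Of their 65 tested genes 8 rose and 2 fell in edgeR, where 5.48% of all tested genes passed upward and 9.74% downward. With DESeq2 these counts were 3 and 0 of 70, where 2.11% of all genes passed upward and 5.7% downward. The counts of the single lists below are small and stand beside the same shares. Thioredoxin partners and clients (16 of 17 tested) had 2 genes that rose and none that fell, with a median log2 fold change of 0.11. Msrb3, a methionine sulfoxide reductase, had 16 and 25 counts in shControl, against 35 and 60 in shLmna, and its level rose from 5.82 to 15.1 CPM (log2 fold change 1.37 ± 0.30 SE, adjusted p = 0.0136, edgeR). Rrm2b, the p53-induced small subunit of ribonucleotide reductase, had 1 and 10 counts in shControl, against 19 and 25 in shLmna, a log2 fold change of 2.16 ± 0.61 (SE; adjusted p = 0.0410, edgeR). This value was 1.40 without shControl 1, where the call was lost (adjusted p = 0.0723, edgeR), and 4.35 without shControl 2, which leaves a control library with 1 count. Neither Msrb3 nor Rrm2b passed with DESeq2 or when either shLmna library was left out. Txnip, which binds and inhibits thioredoxin, had a log2 fold change of 0.48 (adjusted p = 0.176, edgeR), and Txnrd2, the mitochondrial reductase, one of -0.37 (adjusted p = 0.0788, edgeR). Both were named for their roles after their values were seen.

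Other proteins with a thioredoxin fold (20 of 22 tested) had 3 genes that rose and none that fell, with a median of 0.20. All 3 are membrane-bound relatives of protein disulfide isomerase in the endoplasmic reticulum. Tmx2 rose from 106 to 179 CPM (0.74 ± 0.15 SE on the log2 scale, adjusted p = 0.00940, edgeR), a call lost without shLmna 1. The other two had few counts: Tmx3 had 2 and 12 in shControl and 34 and 23 in shLmna (2.24 ± 0.61 SE, adjusted p = 0.0361, edgeR), a value that was 1.55 without shControl 1 and 3.85 without shControl 2. For Tmx4 they were 5 and 7 in shControl, against 17 and 25 in shLmna (1.95 ± 0.44 SE, adjusted p = 0.0161, edgeR). Both of these calls were lost with DESeq2 and without either shLmna library.

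Among superoxide dismutases, catalase and glutathione peroxidases (7 of 10 tested, median 0.07) 1 gene rose and 1 fell. Gpx8, a glutathione peroxidase of the endoplasmic reticulum membrane, had 101 and 118 counts in shControl, against 180 and 340 in shLmna. Its level rose from 31.4 to 81.9 CPM (log2 fold change 1.39 ± 0.17 SE, adjusted p = 0.000674, edgeR), and the call held under all 13 alternative settings. Gpx4, which reduces lipid peroxides, fell from 116 to 79.3 CPM (log2 fold change -0.56 ± 0.14 SE, adjusted p = 0.0273, edgeR), a call lost with DESeq2, after the GC trend was removed and without shControl 1 or either shLmna library. The dismutase Sod1 (0.32, adjusted p = 0.0878), catalase Cat (0.14, adjusted p = 0.738) and Gpx1 (0.07, adjusted p = 0.760) did not pass in edgeR, and were named by role after their values were seen. Sod2 and Gpx7 were at 0 counts in every library. Only reads in the counted 3′ window enter these values, so absence of their transcripts is not shown.

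Regulators and targets of NRF2 (22 of 24 tested, median 0.05) had 2 genes that rose and 1 that fell. Me1, the NADPH-producing malic enzyme, rose from 44.2 to 74.7 CPM (log2 fold change 0.75 ± 0.15 SE, adjusted p = 0.00917, edgeR), a call lost without either shLmna library. Slc7a11, the cystine importer, had 0 and 5 counts in shControl, against 15 and 17 in shLmna (2.81 ± 0.76 SE, adjusted p = 0.0348, edgeR). Its call was lost with DESeq2 and without shControl 1 or either shLmna library. The fitted value was 1.93 without shControl 1 and 7.04 without shControl 2, where the remaining control library is at 0 counts and the value is no bound. Ephx1, an epoxide hydrolase, fell from 169 to 121 CPM (-0.48 ± 0.12 SE, adjusted p = 0.0252, edgeR), a call lost with DESeq2 and without either shLmna library. Other well-known members, named by role after their values were seen, did not pass in edgeR: Nfe2l2, the NRF2 gene itself (-0.31, adjusted p = 0.175), its inhibitor Keap1 (0.20, adjusted p = 0.389), Hmox1 (0.21, adjusted p = 0.329), Gclm (-0.04, adjusted p = 0.875) and Gclc (-0.02, adjusted p = 0.955). Nqo1 had 11 and 12 counts in shControl, against 5 and 25 in shLmna, so its groups overlapped. Nearest to the threshold among genes of this list that did not pass were Cul3 (-0.77, adjusted p = 0.051, edgeR) and Sqstm1 (0.33, adjusted p = 0.092, edgeR).

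**Figure D5:**
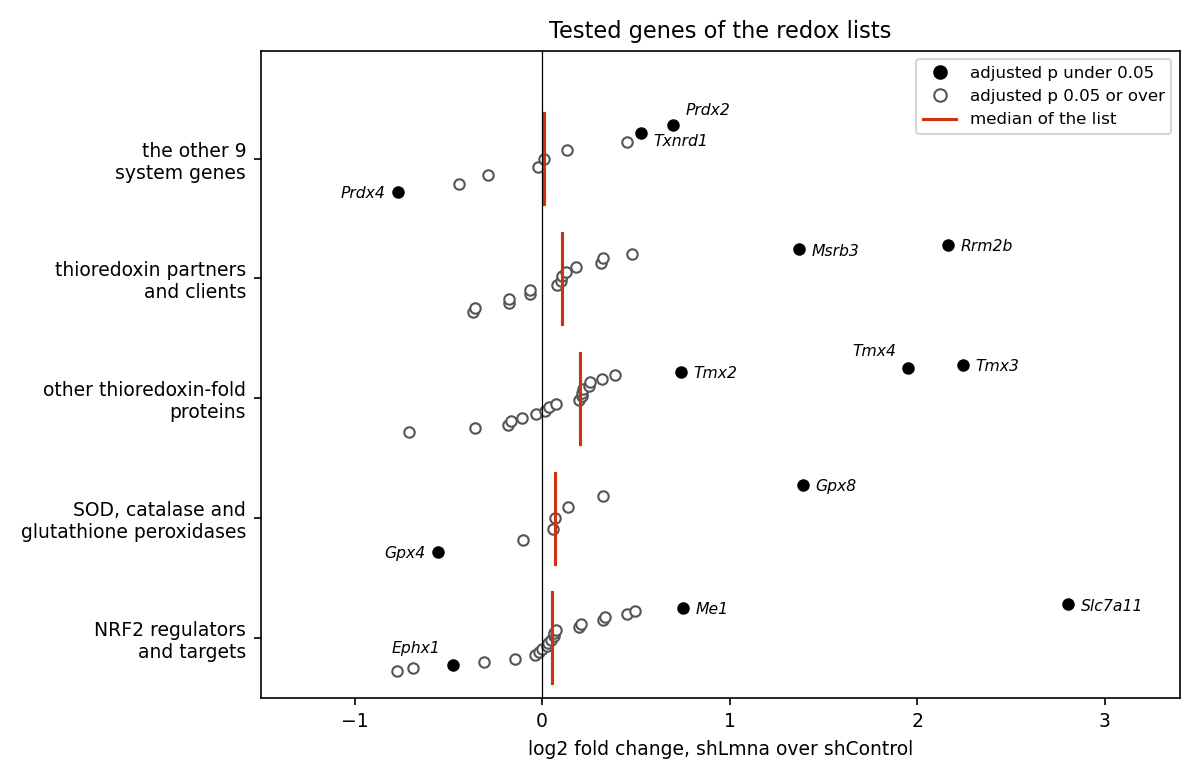
Log2 fold change, shLmna over shControl, of every tested gene of the 4 redox lists and of the 9 system genes other than Prdx1; filled points passed the edgeR test and are named, open points did not, and red bars mark each list's median. The medians lie between 0.01 and 0.20, and 10 genes of the 4 lists are filled, 8 to the right of 0 and 2 to the left.

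The 3 tested genes whose pattern over the 4 libraries was most like that of Prdx1, by Euclidean distance of log2 CPM centred on each gene's mean, were Epm2aip1 (distance 0.348), Pdpn (0.363) and Rab26os (0.409). All 3 had far fewer counts than Prdx1: 12 and 10 in shControl and 42 and 68 in shLmna for Epm2aip1, 10, 7, 41 and 44 for Pdpn, and 10, 4, 31 and 41 for Rab26os. Within the system the nearest was Prdx2, at rank 452 of 9149, followed by Txnrd1 at 702 and Srxn1 at 930. The most distant member was Prdx4, at rank 8249.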

How the data were processed

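Bulk MARS-seq libraries (2 shControl, 2 shLmna, grouped by sample title) were processed by the authors in UTAP: trimming with Cutadapt, alignment to mm10 with STAR 2.4.2a, and HTSeq counting over the last 1000 bases of RefSeq genes and 100 bases downstream. The authors deposited raw counts per gene, which every main test used; the study counted UMIs (tags of single molecules) after marking duplicates, but which deposited table this describes, and the strand setting, are not stated in the sources used here. The authors also deposited normalised values (signal: counts divided by size factors), from which 100% whole reads (tolerance 0.1) were recovered; the matrix exceeded these by a factor of 1.08 to 1.09. Its p-value and fold change columns from the authors' own comparison were not used. Batch-corrected log2 values (ComBat, by the authors) were used in one alternative; the batches are not named.

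edgeR 4.0.16 in R 4.3.3 was fitted with TMM scaling, filterByExpr and group as its one term, over 9150 genes including all 10 members, with Benjamini-Hochberg adjustment. The biological coefficient of variation was 0.126. SEs were derived from the F statistic. Alternatives were other scalings, no low-count filter, DESeq2 1.42.0, recovered reads, limma 3.58.1 on the log2 values, a replicate block, removal of a GC trend (per-library loess, span 0.3) and leaving out each library. Scripts were tested on simulated data. Replicates differed by more than counting noise (chi-square per degree of freedom 6.96 in shControl and 3.91 in shLmna) and were counted as separate samples. Floors of 3 counts cover counting error only.

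Members and gene lists were chosen with earlier results of these data known. Genes named were the 10 members, Lmna and the 3 genes nearest to Prdx1. In each redox list, up to 4 genes per direction with an adjusted p under 0.05 were also named. Genes outside this rule were all named after values were seen. They are the melanocyte markers Tyr, Mlana, Pmel and Sox10, Sod2 and Gpx7, Nqo1, Cul3 and Sqstm1, and those said to be named by role. Genes overlapping or sharing sequence with a member are also among them (Junb, Trmt112, Tdpx-ps1, Txn-ps1, Prdx6b). Coordinates are those of GENCODE vM21 (GRCm38), the assembly of mm10.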

Additional observations from a re-analysis of the deposited data

How the results depend on the processing

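Of the values for single tested genes over the 13 alternatives, 195 kept direction and side of the threshold. Another 35 no longer passed, 8 newly passed and 9 changed sign. Prdx1 was not tested. Its log2 fold change was 2.86 without shControl 1, 2.20 without shControl 2 and 1.29 in limma on the batch-corrected log2 values. The other settings gave 2.43 to 2.54 for Prdx1, beside 2.50 in the main fit. The sign changes were those of Prdx5 (0.0095 with upper-quartile scaling, 0.012 with library totals, 0.00079 in limma, 0.090 after GC removal, 0.0079 without shControl 2, and -0.13 to 0.11 over the libraries left out) and Txn1 (-0.063 after GC removal, -0.07 without shLmna 2, and -0.27 to 0.35 over the libraries left out), neither of which passed the test. Lmna passed in all 13. Genes past the study's 3 limits numbered 161 higher and 538 lower, but 66 higher in DESeq2, 2 higher and 27 lower in limma, and 60 to 232 higher and 387 to 743 lower when 1 library was left out. Of the 9 members other than Prdx1, 2 passed upward, but 1 after GC removal and 0 to 3 with a library left out, and 1 passed downward, but 2 without a low-count filter and 0 to 3 with a library left out. For the redox lists the 8 higher calls were 3 in DESeq2, 17 in limma and 1 to 10 with a library left out, and the 2 lower calls were 5 without a filter, 0 in DESeq2, 6 in limma, 1 after GC removal and 0 to 5 with a library left out. The causes were not tested. With 1 library left out, a lone library is assumed to vary like the other group. No setting moved the median gene by more than 0.032 on the log2 scale.

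Whether replicate numbers pair the libraries is not stated. Deviations of replicate 1 from its group mean correlated at 0.0129 between the groups across 9150 genes. With 2 libraries a group, replicate 2 only mirrors replicate 1, so this value cannot exclude an effect shared by same-numbered libraries. With the number as a replicate block, 209 genes were past the 3 limits upward and 605 downward, 2 members passed downward, redox lists had 4 lower calls, and Srxn1 (adjusted p = 0.00563, edgeR) and Prdx6 (adjusted p = 0.0155, edgeR) passed. Counts of the 10 members ran from 146 (Prdx4, shLmna 1) to 7665 (Txn1, shControl 2) a library, and a limit set by depth was not tested. Calls on Rrm2b, Tmx3, Tmx4 and Slc7a11 rest on under 40 counts a library.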
